A study of Mus musculus with 63 samples.

Results

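The 10 genes described here run the segmentation of the mouse body axis or mark the tissue in which it takes place: *Hes7*, *Lfng*, *Mesp2*, *Tbx6*, *Msgn1*, *Dll3*, *Ripply2*, *T*, *Cyp26a1* and *Uncx*. They were chosen by name, from what is known of somite formation and the tailbud, and are 10 of the 24990 rows of each deposited expression table. In the E9.5 embryos, the label under which they were grouped held only in part. *Hes7*, *Mesp2*, *Tbx6*, *Msgn1* and *Ripply2* had 10 counts or fewer in every E9.5 library. Between E9.5 and E13.5 in WT embryos, 3 of the 6 genes tested were called lower and 1 (*Tbx6*) higher. The *Tbx6* call rested on few counts and was lost under several alternatives. Over all genes tested, 37.6% were called lower and 39.6% higher.

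RNA was sequenced from WT and *Chaserr*+/- (Het) embryos at E9.5 and E13.5, from adult WT and Het brains, and from primary fibroblasts (mEFs) grown out of E13.5 mouse embryos after removal of head and liver. The mEFs were Het, *Chaserr*-/- (KO), *Chd2*m/m or *Chaserr*-/- *Chd2*m/m (DKO), and each mutant group had WT mEFs of its own set. For Het and KO these came from the pregnancy of the mutants, by their titles. Those of *Chd2*m/m and DKO were matched by the set in their descriptions. The titles of the DKO mEFs and of their WT name different crosses, so that match was assumed. Groups had 3 libraries, except that there were 2 of *Chd2*m/m mEFs. *Chaserr* is a long noncoding RNA gene just upstream of *Chd2*, which codes for a chromatin remodeller. The *Chaserr* allele of Het and KO samples lacks its promoter and first exon and came from a pair of founder lines used interchangeably. That of the DKO mEFs was made separately, in *Chd2*m/m mice with fewer guides, and the *Chd2*m allele is a frameshift in the third exon. The embryo and brain labels tie no library to a litter or parent, so p values there measure the spread between these libraries.

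Somites, the blocks of mesoderm that become vertebrae, ribs and trunk muscle, are cut in sequence from the presomitic mesoderm next to the tailbud. There, Notch signalling and its target *Hes7* oscillate as a clock, while Wnt and Fgf signals from the tailbud keep cells unsegmented until they meet retinoic acid from the somites. *Mesp2* and *Ripply2* then set each boundary. Segmentation is under way at E9.5 and is near its end at E13.5, and the presomitic mesoderm is a small share of the embryo at both stages. In such bulk libraries, fewer cells of a type and less RNA per cell cannot be told apart.

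The promoters of the members were searched for letters bound by factors of these pathways. In the 250 bases before and 50 bases after the RefSeq start (build GRCm38.p6), both strands were searched for TGGGAA (the core bound by RBPJ, the Notch effector), CTTTGA (bound by LEF/TCF, the Wnt effectors) and GTGTGA (a T-box core). At least 1 of these motifs stood in 6 of the 10 promoters and in 46.0% of 32851 promoters, and each motif alone was about as frequent among the members as in all promoters. The pair of clock genes with an RBPJ match and the pair of tailbud genes with a LEF/TCF match are printed here with all matches of the 3 motifs in capitals, since they include the members with the most (*Lfng*) and nearly the least (*Msgn1*) RNA at E9.5. *Hes7* lies at chr11:69120203-69120502 (+ strand), *Lfng* at chr5:140607091-140607390 (+ strand), *Msgn1* at chr12:11208899-11209198 (- strand) and *T* at chr17:8434173-8434472 (+ strand), each printed in the direction of transcription.
Hes7: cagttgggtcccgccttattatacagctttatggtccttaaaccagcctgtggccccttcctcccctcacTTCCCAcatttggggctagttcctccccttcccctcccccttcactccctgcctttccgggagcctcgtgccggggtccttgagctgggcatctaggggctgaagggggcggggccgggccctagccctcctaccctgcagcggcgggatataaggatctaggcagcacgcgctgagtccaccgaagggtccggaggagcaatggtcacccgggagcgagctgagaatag
Lfng: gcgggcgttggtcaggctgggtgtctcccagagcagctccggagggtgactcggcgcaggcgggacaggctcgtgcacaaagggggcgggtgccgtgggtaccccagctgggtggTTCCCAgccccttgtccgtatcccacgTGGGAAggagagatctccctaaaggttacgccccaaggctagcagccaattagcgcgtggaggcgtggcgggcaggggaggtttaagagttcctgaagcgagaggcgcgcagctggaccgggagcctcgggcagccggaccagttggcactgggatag
Msgn1: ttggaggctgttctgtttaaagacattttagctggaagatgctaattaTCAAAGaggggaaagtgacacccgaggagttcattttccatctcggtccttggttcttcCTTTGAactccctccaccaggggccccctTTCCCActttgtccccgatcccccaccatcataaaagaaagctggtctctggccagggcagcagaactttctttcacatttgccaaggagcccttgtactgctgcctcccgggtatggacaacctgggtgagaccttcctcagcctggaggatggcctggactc
T: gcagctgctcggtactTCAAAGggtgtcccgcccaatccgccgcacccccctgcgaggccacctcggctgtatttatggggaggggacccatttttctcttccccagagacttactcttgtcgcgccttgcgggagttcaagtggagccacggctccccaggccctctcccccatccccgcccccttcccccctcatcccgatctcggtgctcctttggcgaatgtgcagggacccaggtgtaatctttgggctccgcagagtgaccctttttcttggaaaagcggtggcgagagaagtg

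*Lfng* held RBPJ matches starting 135 and 108 bases before its start site, *Hes7* held 1 starting at 180 bases before, and *Msgn1* held 1 at 114 bases before. The LEF/TCF matches were 202 and 143 bases before the start of *Msgn1* and 234 bases before that of *T*. A T-box match stood 146 bases before the start of *Dll3* and 127 bases before that of *Ripply2*. None of the 3 motifs was found in the windows of *Mesp2*, *Tbx6*, *Cyp26a1* or *Uncx*. The RBPJ letters occurred in 3 of the 10 windows and in 25.6% of all promoters, the LEF/TCF letters in 2 and 16.0%, and the T-box letters in 2 and 14.5%. An E-box (CANNTG) was found in 8 windows and 72.3% of all promoters, and an N-box (CACNAG) in 4 windows and 42.5%, and matches of different motifs may overlap. These are letters in a window, and no binding was measured.

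The E9.5 libraries differed among themselves before any comparison of genotype. The summed TPM (a level corrected for transcript length and library size) of the 16 *Hox* genes of paralogue groups 9 to 13, which are expressed in the posterior of the embryo, was 58.5, 49.0 and 6.87 in WT 1, 2 and 3 and 2.17, 49.0 and 28.8 in Het 1, 2 and 3. The sum of 5 heart genes (*Myh6*, *Myl7*, *Nkx2-5*, *Tnnt2*, *Hand2*) lay between 739 and 1119 TPM in 5 libraries and was 51.3 in Het 3. Both lists were chosen after their values were seen. Which parts of the embryo each library holds is not stated in the labels. At E13.5 the *Hox* sum was 116 to 159 TPM in all 6 libraries, and later-stage genes (liver, muscle, neuron, cartilage and adult globin) summed to 91980 TPM in Het 1 against 19130 to 34690 in the other 5. The stage labels themselves held: *Lin28a*, an RNA-binding protein of early embryos, was at 198 to 350 TPM at E9.5 and under 1 TPM at E13.5, and the neuronal *Neurod6* went from 0 to between 29.9 and 50.8. Total counts were 21589962 to 31293072 per embryo library. *Chaserr* was lower in each Het than in each WT library of the E9.5 embryos, brains and mEFs. At E13.5 it was at 29.9 to 42.5 TPM in Het and 42.1 to 64.6 in WT, so the groups touched. It was at 0 in KO mEFs and reached at most 0.23 TPM in DKO mEFs. The WT mEFs of the DKO set held *Chaserr* at 80.0 to 93.7 TPM, against 8.63 to 22.2 in the other WT mEFs. The cause of this difference was not tested.

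At E9.5 the members spanned more than the range that the depth could resolve. In WT E9.5 embryos, the order of mean levels was *Lfng*, *Cyp26a1*, *Dll3*, *T*, *Uncx*, *Tbx6*, *Mesp2*, *Hes7*, *Msgn1* and *Ripply2*. *Lfng*, which codes for a glycosyltransferase that modifies Notch receptors, was at 25.4, 24.5 and 32.9 TPM. *Cyp26a1*, the enzyme that degrades retinoic acid in the tailbud, was at 5.87, 6.18 and 7.36 TPM. *Dll3*, a Notch ligand that acts within the cell, was at 4.65, 4.16 and 5.04 TPM. Each of these neighbours in the order was apart from the next without overlap. *T* (Brachyury, a transcription factor of tailbud and notochord) was at 1.89, 2.31 and 2.70 TPM, and *Uncx*, a homeobox gene of the posterior part of each somite, was at 1.66, 2.52 and 1.28 TPM. *T* and *Uncx* overlapped. The remaining 5 genes were each under 0.5 TPM in every E9.5 library of either genotype, which separates them from the first 5 in WT.

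**Figure D1:**
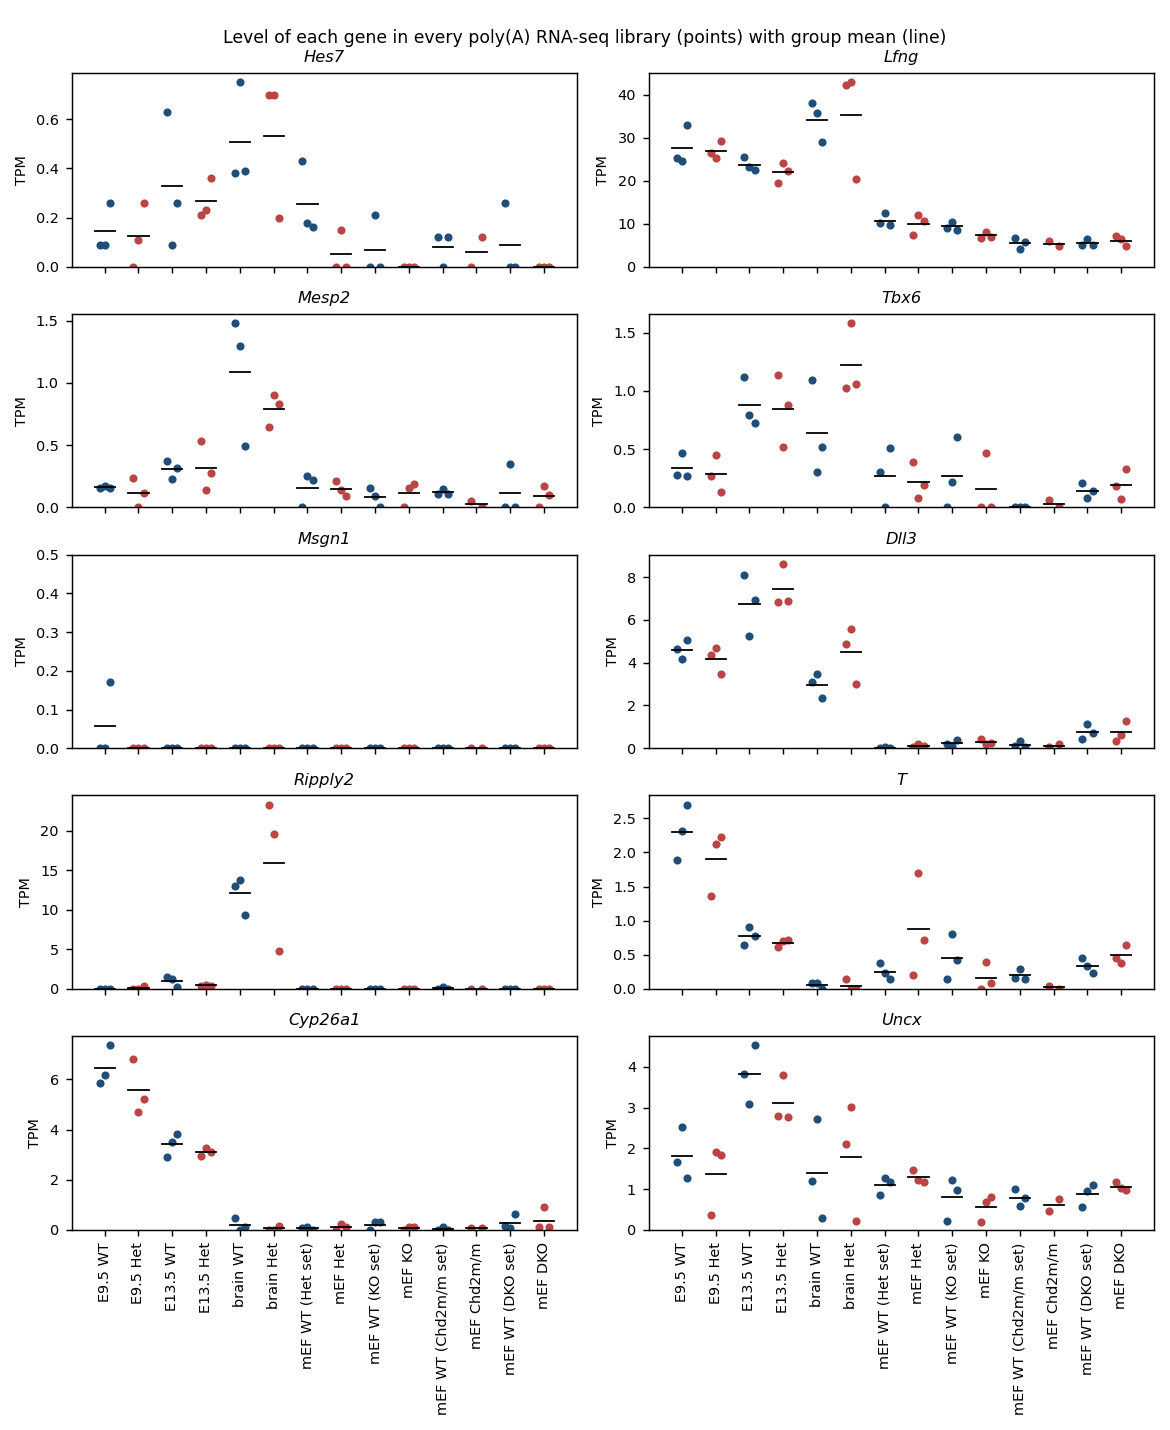
Level (TPM, y axis, scale set for each gene) of each of the 10 genes in the 41 poly(A) RNA-seq libraries, by group (x axis): points are libraries (blue WT, red mutant) and lines are group means. *Lfng* was present in every group, *T* and *Cyp26a1* were highest at E9.5, *Ripply2* was highest in brains, and *Msgn1* had a value above 0 in 1 library.

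The genes nearest to the clock and the boundary rested on a few counts. *Hes7*, the oscillating repressor, had 1, 1 and 3 counts in the WT E9.5 libraries and 0, 1 and 3 in the Het libraries. *Mesp2*, which sets the anterior side of each new boundary, had 4, 4 and 4 counts in WT and 7, 0 and 3 in Het. *Tbx6*, which specifies presomitic mesoderm, had 6, 10 and 6 in WT and 7, 8 and 3 in Het. Reads of these 3 genes were therefore present, for *Hes7* at no more than 3 counts in a library. The depth could not resolve a difference between genotypes.

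*Msgn1*, a second specifier of presomitic mesoderm, had 1 count over all 12 embryo libraries, in WT E9.5 library 3, and none in brains, mEFs or Neuro2a cells. Its row gives no value above that in any library, so whether the row can register the transcript cannot be read from these data. *Ripply2*, which ends *Mesp2* expression, had 0 counts in all 3 WT E9.5 libraries and 0, 0 and 2 in the Het libraries. A count of 0 allowed up to 3 counts, which were worth 0.439 to 0.637 TPM for *Msgn1* and 0.521 to 0.756 TPM for *Ripply2* in an E9.5 library. These limits, like all intervals on counts here, cover counting error only.

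The low members had low companions among the fixed gene lists. *Mesp1*, the partner of *Mesp2*, was at 0 TPM in 5 of the 6 E9.5 libraries and at 0.08 in Het 3. Among the tailbud genes, *Cdx2* was at 0.39 to 1.45 TPM, *Nkx1-2* at 0.35 to 1.08 and *Cdx4* at 0 to 0.29 at E9.5. Wnt and Fgf ligands of the tailbud were higher, with *Wnt3a* at 4.75 to 8.85 TPM and *Fgf8* at 8.30 to 11.5, and both genes are also expressed outside the tailbud, in the brain among other places. Genes of formed somites were present, with *Meox1* at 35.1 to 66.2 and *Tcf15* at 5.27 to 10.3 TPM. The part of the *Hox* differences in these levels was not tested.

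Between E9.5 and E13.5, *T* and *Cyp26a1* fell in both genotypes. After TMM scaling, *T* was at 2.11, 2.62 and 2.92 CPM (counts scaled to a common library size) in WT E9.5 libraries and at 0.60, 0.84 and 0.71 at E13.5. The groups did not overlap, and the log2 fold change was -1.83 ± 0.24 (SE, edgeR, adjusted p = 1.9e-05). In Het embryos, *T* went from 1.57, 2.40 and 2.54 CPM to 0.65, 0.62 and 0.65, a log2 fold change of -1.74 ± 0.24 (adjusted p = 3.1e-05).

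*Cyp26a1* went from 5.65, 6.05 and 6.85 CPM in WT at E9.5 to 2.28, 2.79 and 2.99 at E13.5, again without overlap. Its log2 fold change was -1.20 ± 0.17 in WT (edgeR, adjusted p = 4.2e-05) and -1.12 ± 0.17 in Het embryos (adjusted p = 7.8e-05). The gene stayed well above detection at E13.5, with 65 to 88 counts in every library of that stage. Of the related enzymes in the retinoic acid list, *Cyp26c1* fell further, from 12.5, 17.0 and 17.3 TPM to 0.21, 0.39 and 0.35 in WT.

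*Lfng* fell less, and its fall depended on the scaling. It was at 32.0, 31.4 and 40.1 CPM in WT at E9.5 and at 26.1, 24.0 and 23.1 at E13.5, with no overlap. The log2 fold change was -0.50 ± 0.10 in WT (edgeR, adjusted p = 0.00057) and -0.57 ± 0.10 in Het embryos (adjusted p = 2e-04). With library totals alone in place of TMM, an alternative chosen after seeing the data, it was -0.14 (adjusted p = 0.23) in WT and -0.22 (adjusted p = 0.075) in Het. That scaling moved the median of all genes tested from 0.04 to 0.40 on the log2 scale in WT, and *T* and *Cyp26a1* still fell under it. Over all genes it called 8809 higher and 3757 lower, compared with 6407 and 6084 after TMM scaling.

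*Tbx6* was called higher at E13.5 in both genotypes and *Dll3* in Het embryos, and *Uncx* was not called in either. *Tbx6* had 24, 18 and 16 counts in WT E13.5 libraries, all above the 6 to 10 at E9.5. Its log2 fold change was 1.07 ± 0.45 in WT (edgeR, adjusted p = 0.049) and 1.37 ± 0.47 in Het embryos (adjusted p = 0.018). The WT call was lost by DESeq2, without the filter on low counts, with the replicate block and when any of 7 libraries was left out (adjusted p up to 0.15), including each WT library except E9.5 WT 2. The Het call was lost without E9.5 Het 1 (adjusted p = 0.053), E9.5 Het 3 (0.074) or E13.5 Het 1 (0.069).

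*Dll3* was at 5.52, 5.02 and 5.80 CPM in WT at E9.5 and at 7.81, 5.17 and 6.73 at E13.5, where 1 library lay within the earlier range. The difference did not pass in WT (log2 fold change 0.27 ± 0.17, edgeR, adjusted p = 0.16), and passed without E13.5 WT 2 (0.41, adjusted p = 0.035) and with library totals alone (0.63, adjusted p = 0.0055). In Het embryos, *Dll3* rose from 5.32, 5.64 and 4.23 CPM to 7.65, 8.17 and 6.60, a log2 fold change of 0.56 ± 0.17 (edgeR, adjusted p = 0.0083). Whether the genotypes differed in this was tested directly and did not pass (difference 0.29 ± 0.23, edgeR, adjusted p = 0.96).

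*Uncx* was at 1.90, 2.93 and 1.42 CPM in WT at E9.5 and at 3.57, 2.92 and 4.25 at E13.5. Its log2 fold change of 0.78 ± 0.45 in WT did not pass (edgeR, adjusted p = 0.13), and nor did that of 0.94 ± 0.46 in Het embryos (adjusted p = 0.077). The E9.5 libraries lowest for *Uncx* were Het 1 (0.44 CPM) and WT 3 (1.42 CPM), which were also the 2 lowest in *Hox* groups 9 to 13. Without Het 1 the WT value was 0.78 (adjusted p = 0.018), and in a fit of the WT libraries alone it was 0.81 (adjusted p = 0.017). With library totals alone it passed in both genotypes (1.15, adjusted p = 0.033 in WT, and 1.30, adjusted p = 0.021 in Het). The part of the *Hox* differences in these values was not tested.

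*Hes7*, *Mesp2*, *Msgn1* and *Ripply2* were below the count filter of this fit. In WT embryos *Hes7* had 5 counts over the E9.5 group and 11 over the E13.5 group, and *Mesp2* had 12 and 23. *Ripply2* had 7, 6 and 1 counts in WT at E13.5 against none at E9.5, which is at least 3.74-fold higher against a floor of 3 counts over the E9.5 group. In the fit without the filter, *Ripply2* passed in WT (edgeR, adjusted p = 0.012) and not in Het embryos, which had 2, 3 and 2 counts at E13.5 (adjusted p = 0.38). The difference between genotypes in this change did not pass in that fit (-3.91 ± 2.12 on the log2 scale, edgeR, unadjusted p = 0.095). *Hes7* and *Mesp2* did not pass there in either genotype (adjusted p from 0.20 to 0.47).

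**Figure D2:**
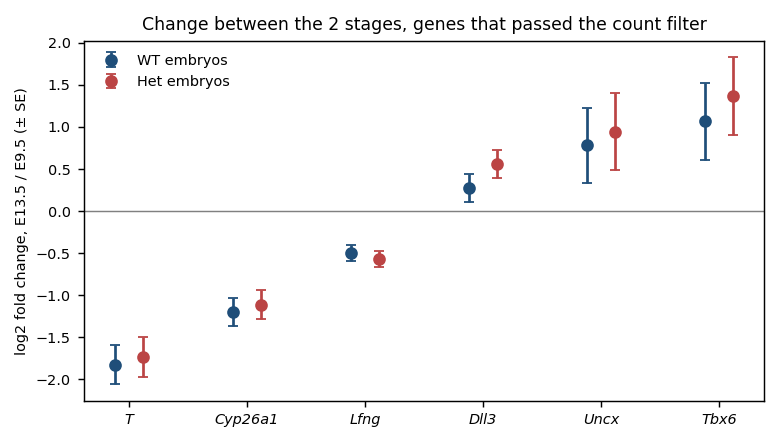
Log2 fold change from E9.5 to E13.5 (y axis, ± SE from the edgeR fit of 12 embryo libraries, n = 3 per group) for the 6 genes that passed the count filter, in WT (blue) and Het (red) embryos. *T*, *Cyp26a1* and *Lfng* lie below 0 in both genotypes, and *Dll3*, *Uncx* and *Tbx6* lie above it.

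In the count over members, 3 of the 10 genes were called lower at E13.5 in WT (*T*, *Cyp26a1*, *Lfng*), 1 was called higher (*Tbx6*), 2 were tested without a call and 4 were not tested. Over all 16173 genes tested in WT, 37.6% were called lower and 39.6% higher, so calls in both directions were common throughout the transcriptome. In Het embryos 3 members were called lower and 2 higher (*Tbx6*, *Dll3*), against 37.9% and 40.0% of all genes. No member differed between genotypes in its change with stage, and 0.0124% of all genes did (2 genes).

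The surrounding pathways also held calls in both directions. Of 17 Notch pathway genes, 8 fell and 4 rose in WT, with a median log2 fold change of -0.12 against 0.04 over all genes. *Jag1*, a Notch ligand, fell from 22.4, 20.3 and 28.8 TPM to 15.9, 16.5 and 15.6 (log2 fold change -0.85 ± 0.10, edgeR, adjusted p = 7.3e-06), and *Maml1*, a coactivator of the Notch effector complex, fell by 0.53 on the log2 scale. *Dtx1*, a regulator of Notch that is expressed in neural tissue, rose from 0.61, 0.66 and 0.82 TPM to 13.6, 10.5 and 11.9 (log2 fold change 3.82 ± 0.17), and *Heyl*, a Notch target, rose by a log2 fold change of 1.02 ± 0.18. *Dll1*, the activating ligand of the clock, did not pass (-0.12 ± 0.10, adjusted p = 0.27) and stood at 14.0 to 17.0 TPM in WT at E9.5.

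Of 28 tailbud Wnt and Fgf genes, 26 were tested, 10 fell and 7 rose (median -0.19). *Cdx1*, a homeobox gene of the posterior embryo, fell from 3.98, 3.48 and 3.46 TPM to 0.05, 0.04 and 0.18 (log2 fold change -5.55 ± 0.66, edgeR, adjusted p = 9.9e-06). *Fgf8*, the tailbud ligand, fell from 8.30, 10.6 and 10.4 TPM to 1.37, 1.42 and 1.46 (-3.04 ± 0.21). The largest rises were *Eomes*, from at most 0.10 TPM to 14.1, 8.83 and 9.80, and *Evx1*, from at most 0.14 to 0.59, 1.54 and 1.24 TPM. Both risers are also known from the nervous system, *Eomes* in cortical progenitors and *Evx1* in spinal interneurons.

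Of 20 genes of somite formation and polarity, 19 were tested, 8 fell and 6 rose (median -0.22). *Pax3*, a marker of the dorsal somite and neural tube, fell by 1.46 on the log2 scale, and *Meox1*, a homeobox gene of somites, fell by 1.30. *Meox2* rose by a log2 fold change of 0.89 ± 0.21 and *Pax1*, a marker of the sclerotome, by 0.83 ± 0.21. Among 12 retinoic acid genes, 4 fell and 4 rose (median -0.17): *Cyp26c1* and *Crabp2*, a retinoic acid binding protein, fell most, by 5.87 and 2.02 on the log2 scale, and *Dhrs3* and *Aldh1a1*, both enzymes of retinoid metabolism, rose by log2 fold changes of 2.08 ± 0.16 and 1.92 ± 0.36. Of 8 notochord genes, 7 were tested, 4 fell and 2 rose (median -0.35), with *Foxa2* and *Shh* falling by 2.32 and 2.13 and *Chrd* and *Foxj1* rising by log2 fold changes of 2.75 ± 0.15 and 1.42 ± 0.13.

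The lists that mark stage and tissue moved as their names say. Of 10 earlier-stage genes, 8 were tested and 6 fell (median -4.05), led by *Lin28a* (-8.89 ± 0.35) and *Trim71* (-5.74 ± 0.18). Of 15 later-stage genes, 14 rose (median 4.27), led by *Neurod6* and *Ahsg*, and *Col2a1* of cartilage fell by 0.30 on the log2 scale after TMM scaling and differed by 0.06 with library totals alone (adjusted p = 0.55). Of 10 brain genes, 6 rose and 2 fell (median 3.13), with *Gad1* and *Syt1* rising most and *Aqp4* falling by 0.91 on the log2 scale. Of 10 fibroblast genes, 9 rose (median 1.80), led by *Thy1* and *Col1a2*, and *Fn1* fell by 0.32 on the log2 scale after TMM scaling and differed by 0.04 with library totals alone (adjusted p = 0.55). With library totals alone, list medians rose with the median of all genes (0.40), to 0.24 for Notch, 0.17 for tailbud, 0.14 for somite, 0.19 for retinoic acid and 0.01 for notochord genes, each above 0 and below that of all genes. The calls were then 8 higher and 2 lower for Notch, 10 and 8 for tailbud, 8 and 6 for somite, 5 and 4 for retinoic acid, and 2 and 3 for notochord genes. The genes named from these 5 lists kept their direction and their call.

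**Figure D3:**
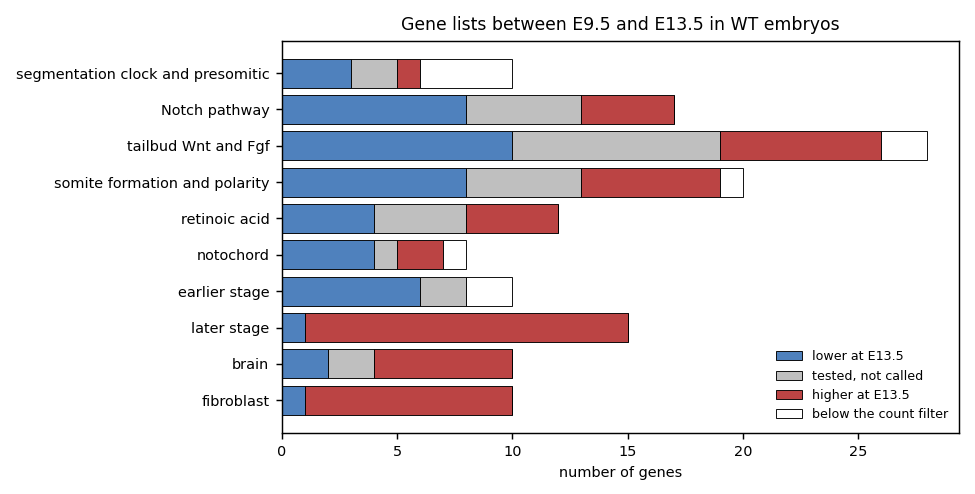
Number of genes (x axis) in each list (y axis) that were lower at E13.5, tested without a call, higher at E13.5 or below the count filter in WT embryos (edgeR, adjusted p under 0.05, n = 3 per group). The segmentation, Notch, tailbud, somite, retinoic acid and notochord lists hold calls in both directions, whereas 14 of 15 later-stage genes rose.

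The question for the E9.5 Het embryos was whether the segmentation genes differed in embryos with a single intact *Chaserr* copy, in which *Chd2* was at 36.5 to 42.9 TPM against 24.7 to 25.8 in WT. Of the 10 members, 5 were tested and none was called, as was the case for all 14500 genes tested (0.0% called, 453 at an unadjusted p under 0.05, and 5 called by DESeq2). No member reached an unadjusted p under 0.05. *Chd2* itself, with a log2 fold change of 0.66 ± 0.06 and no overlap between groups, had an adjusted p of 0.10 in this edgeR fit.

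*Lfng* was at 32.0, 31.4 and 40.1 CPM in WT and at 34.2, 32.1 and 37.6 in Het, and the groups overlapped throughout (log2 fold change -0.0025 ± 0.11, edgeR, adjusted p = 1). *Dll3* was at 5.52, 5.02 and 5.80 in WT and 5.32, 5.64 and 4.23 CPM in Het (-0.12 ± 0.15). The Het and WT ranges of *Dll3* overlapped as well.

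*T* was at 2.11, 2.62 and 2.92 CPM in WT and 1.57, 2.40 and 2.54 in Het (-0.25 ± 0.24), and *Cyp26a1* at 5.65, 6.05 and 6.85 in WT and 6.74, 4.54 and 5.12 in Het (-0.18 ± 0.17). *Uncx* was at 1.90, 2.93 and 1.42 CPM in WT and 0.44, 2.19 and 2.16 in Het (-0.41 ± 0.54). Het 1 was the lowest of the 6 libraries for both *T* and *Uncx*, and Het 2 and Het 3 lay within the WT range for each. With each library left out in turn, the value ran from -0.39 to -0.05 for *T*, from -0.36 to -0.07 for *Cyp26a1* and from -0.74 to 0.06 for *Uncx*, and none passed.

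**Figure D4:**
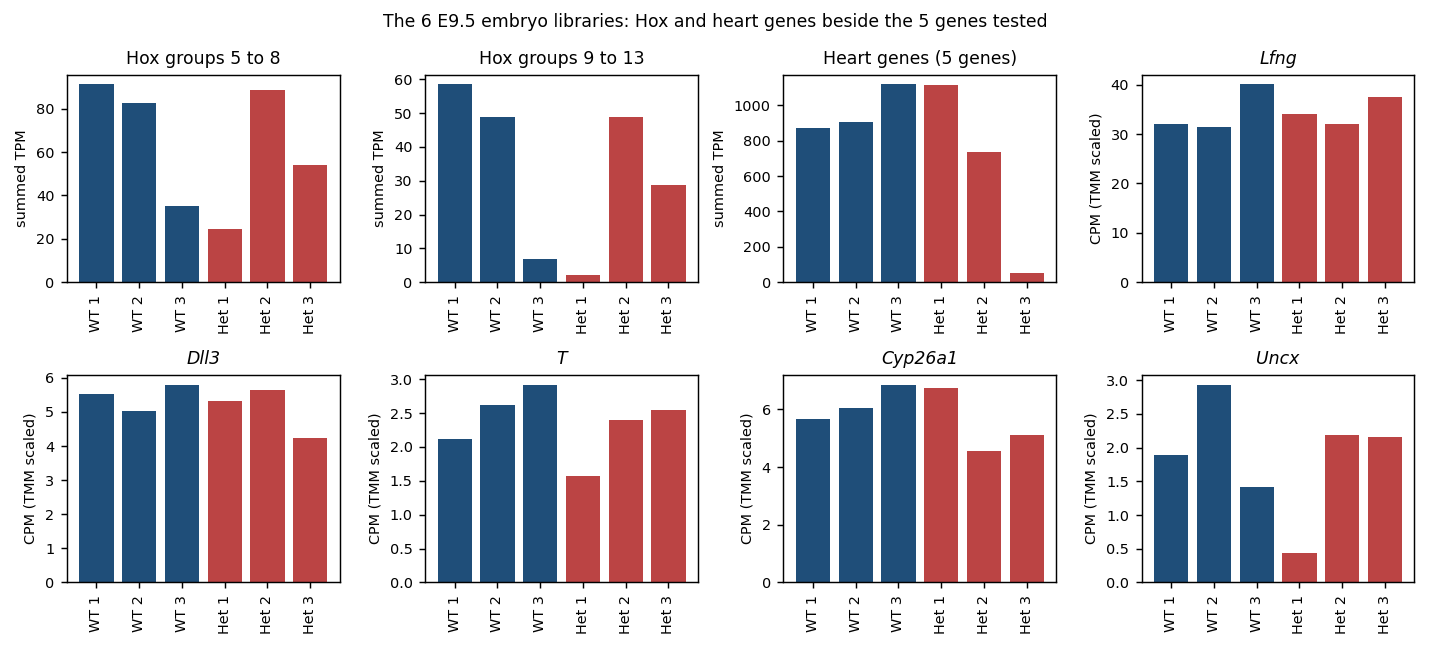
The 6 E9.5 libraries (x axis; blue WT, red Het): summed TPM of *Hox* paralogue groups 5 to 8, groups 9 to 13 and 5 heart genes, and CPM after TMM scaling of the 5 genes tested. Het 1 was lowest in *Hox* groups 9 to 13 (2.17 TPM), *T* and *Uncx*, and Het 3 was lowest in heart genes (51.3 TPM).

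None of the fixed pathway lists held a call in the E9.5 comparison. At an unadjusted p under 0.05 stood 1 of 17 Notch genes tested, 1 of 24 tailbud genes, and none of 17 somite, 12 retinoic acid or 7 notochord genes. The list medians lay between -0.07 and 0.05 on the log2 scale, beside -0.00022 over all genes. Among the lists of tissue and stage, 5 of 10 fibroblast genes stood at an unadjusted p under 0.05, all lower in Het and none called, with a list median of -0.21, and the later-stage median was -0.26. The part of these differences in the values of the members was not tested.

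At E13.5, 6 members were tested between Het and WT and none was called (0.0314% of all genes were, 5 of 15946). *Lfng* was the most closely measured, at 26.1, 24.0 and 23.1 CPM in WT and 23.1, 24.2 and 22.6 in Het (log2 fold change -0.06 ± 0.07, edgeR, adjusted p = 0.84). *Dll3* was at 7.65, 8.17 and 6.60 CPM in Het against 7.81, 5.17 and 6.73 (0.19 ± 0.17), and *Uncx* at 3.02, 3.48 and 2.58 against 3.57, 2.92 and 4.25 (-0.24 ± 0.19). *T* (-0.15 ± 0.22), *Cyp26a1* (-0.08 ± 0.16) and *Tbx6* (0.03 ± 0.38) overlapped between genotypes as well.

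In adult brain the set split. *Lfng* was at 38.0, 35.7 and 28.9 TPM in WT and 42.3, 43.0 and 20.3 in Het. In replicate 3 of both genotypes, made with the kit of the embryos (TruSeq), it lay within the embryo range (19.45 to 32.85 TPM). The values above that range came from the other kit (SENSE), so tissue and kit cannot be told apart there. *Dll3* was at 3.10, 3.46 and 2.37 TPM in WT and 4.87, 5.59 and 3.00 in Het. *T* had at most 2 counts and *Cyp26a1* at most 5 in any brain library.

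*Ripply2* was highest in the brain. It was at 13.04, 13.8 and 9.40 TPM in WT and 23.3, 19.5 and 4.74 in Het, on 20 to 61 counts per library, whereas no embryo library exceeded 1.48 TPM and 1 of 23 mEF libraries had a count. The row can therefore register the transcript, at levels that the WT E9.5 libraries did not approach. Brains and embryos differed in age, tissue and in part the kit, so the levels are given as a description. Replicate 3 of both genotypes was made with the kit used for the embryos (TruSeq), and its values of 9.40 and 4.74 TPM also lay above every embryo value.

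*Mesp2* (0.49 to 1.48 TPM), *Tbx6* (0.30 to 1.58) and *Hes7* (0.20 to 0.75) had medians in the brain above those of the E9.5 embryos. They rested on at most 18, 20 and 5 counts in a library, in that order. For *Hes7*, 3 counts were worth 0.234 to 0.565 TPM there, so its values lay near that floor. The 4 SENSE libraries also differed from the embryos in kit. *Uncx* ran from 0.21 to 3.01 TPM, and its 2 lowest values were the 2 TruSeq libraries (0.29 in WT and 0.21 in Het, against 1.20 to 3.01 in the 4 SENSE libraries).

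Between Het and WT brains, 6 members were tested and none was called, nor was any other gene (0.0% called, 368 at an unadjusted p under 0.05, and 1 called by DESeq2). *Ripply2* differed by 0.46 ± 0.65 on the log2 scale (edgeR, adjusted p = 0.9997). The Het libraries were higher within the SENSE kit, 23.3 and 19.5 against 13.04 and 13.8 TPM, and lower within the TruSeq kit, 4.74 against 9.40. With the kit as a covariate the value was 0.18 ± 0.37 (adjusted p = 0.85). *Tbx6* (0.95 ± 0.55) and *Dll3* (0.59 ± 0.38) were the furthest from 0 and did not pass.

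The mEFs kept *Lfng*, *Uncx* at a lower level, and little else. Over 23 mEF libraries *Lfng* was at 4.18 to 12.4 TPM (median 7.01), with 59 to 207 counts, below every embryo and brain library. *Uncx* had at least 2 counts in every library, 10 or more in 19 of the 23, and a median of 0.97 TPM (0.18 to 1.47). The medians of *T* (0.29 TPM), *Dll3* (0.22), *Mesp2* (0.11), *Cyp26a1* (0.09) and *Tbx6* (0.08) rested on 5 counts or fewer, those of *Hes7* and *Ripply2* were 0, and *Msgn1* had no count. The highest *T* value in mEFs, 1.70 TPM on 26 counts, was in Het library 2, and the other 22 libraries had 9 counts or fewer.

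Of the 10 members, 2 were tested in Het mEFs, 1 in KO (*Lfng*), 2 in *Chd2*m/m and 3 in DKO. None was called in any of the 4 mEF comparisons. *Dll3*, tested in DKO alone, differed by -0.05 ± 0.53 on the log2 scale. The share of all genes called was 0.173% for Het, 0.118% for KO, 0.0145% for *Chd2*m/m and 0.0924% for DKO mEFs. The KO count depended on the method, with 16 genes called by edgeR, 2590 by DESeq2, 1407 without the filter on low counts and 1111 with library totals alone. *Lfng* in KO mEFs came closest, at 12.2, 13.6 and 11.4 CPM in WT and 8.32, 10.5 and 8.88 in KO. Its log2 fold change was -0.43 ± 0.18 (edgeR, adjusted p = 0.14). In the other mutants *Lfng* differed by -0.13 ± 0.17 (Het), -0.03 ± 0.18 (*Chd2*m/m) and 0.16 ± 0.21 (DKO), and *Uncx* by 0.23 ± 0.28, -0.35 ± 0.41 and 0.27 ± 0.37. Of the other lists, 1 gene was called by edgeR in the mEF comparisons: *Acta1*, skeletal muscle actin and a later-stage marker, was at 243, 215 and 200 TPM in WT and 84.6, 118 and 108 in KO (-1.15 ± 0.16, adjusted p = 0.035). Another 6 genes of these lists stood just past the threshold in KO, all at an adjusted p of 0.052 and all lower: *Snai1* (-0.999), *Sox9* (-0.90), *Rara* (-0.76), *Rfng* (-0.75), *Col1a1* (-0.63) and the row joining *Hba-a2* and *Hba-a1* (-2.55), named after their values were seen. These 6 were among 92 list genes tested. The adjustment gave them the same value although their unadjusted p ran from 7.0e-05 to 0.00136 (edgeR), so it does not single them out. DESeq2, with 2590 calls over all genes, called 11 list genes lower and 2 higher in KO. The study also reported more genes lower than higher in KO mEFs. *Lfng* was not among the DESeq2 calls.

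**Figure D5:**
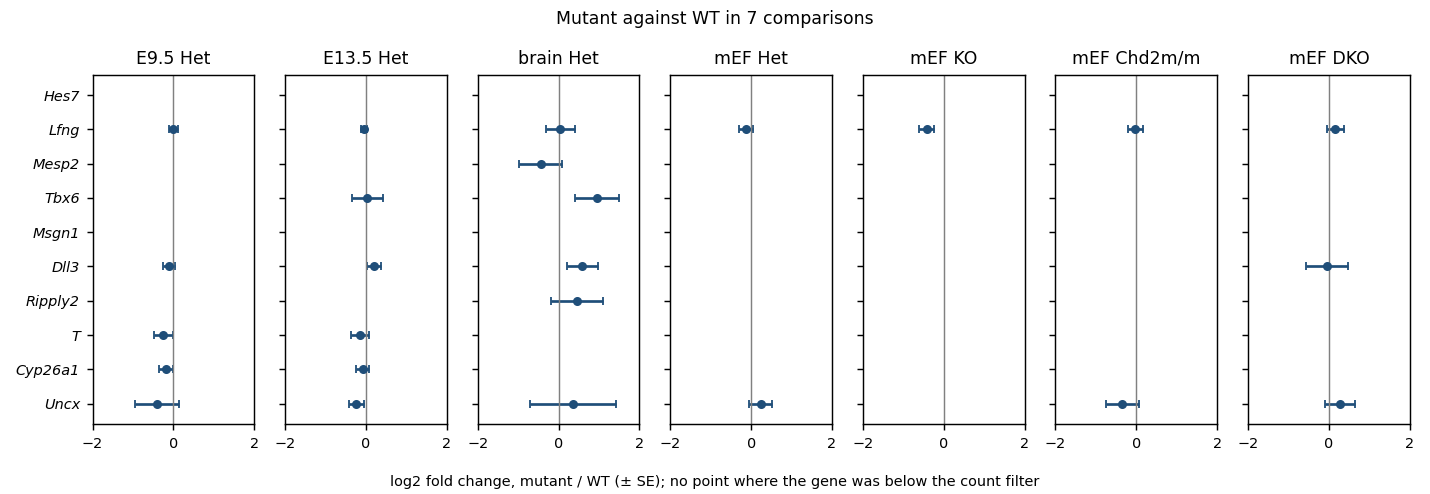
Log2 fold change of mutant against WT (x axis, ± SE from edgeR) for each gene (y axis) in 7 comparisons (panels); a gene below the count filter has no point. None of the values passed an adjusted p of 0.05, and the standard errors were smallest for *Lfng*, from 0.07 in E13.5 embryos to 0.36 in brains.

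ATAC-seq, which marks accessible chromatin by the insertion of a transposase, gave a further readout of the promoters in mEFs. A deposited peak lay within 300 bases of the annotated start of 5 members in at least 1 of the 12 libraries, compared with 62.5% of 22380 protein-coding genes. *Lfng* had a peak in 11 of 12 libraries, with a fold enrichment at the summit of 4.21 to 5.85, and the library without one was DKO 1. Peak totals were 28349 in DKO 1 and 18661 in the second WT library of its set, which did have the peak, and 58324 to 93597 in the other 10. *Lfng* is also the member with the most RNA in mEFs.

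*Ripply2* had a promoter peak in 8 of 12 libraries and *Mesp2* in 7, the latter with summits 351 to 504 bases downstream of its start, although their transcripts were at or near 0 in mEFs. *Dll3* had one in 6 libraries by the GENCODE start and in 2 by the RefSeq start, which lies 453 bases away. *Hes7*, *Tbx6*, *Msgn1*, *T* and *Uncx* had none in any library within 300 bases of the GENCODE start. By the RefSeq start *Uncx* had one in 1 KO library, and within 1000 bases *Tbx6* had one in 9 of 12 libraries, so the absence for *Tbx6* holds for the narrow window only. *Hes7*, *Msgn1* and *T* had none in either case. With peaks of a -log10 q of at least 10 only, *Lfng* (10 libraries), *Dll3* (4) and *Mesp2* (1) remained.

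*Cyp26a1* was picked out after the peaks of all members were seen. It had a promoter peak in all 3 KO libraries and 1 of 3 DKO libraries, and in none of their 6 WT libraries. The fold enrichment was low, 3.33 to 3.79. For KO against WT the two-sided Fisher's exact test gave p = 0.1, the smallest that 3 against 3 allows, and the KO libraries had 62610, 91121 and 93597 peaks against 66967, 70516 and 58324 in WT. *Cyp26a1* RNA had 0, 1 and 1 counts in KO mEFs and 0, 3 and 3 in their WT mEFs, so no change in RNA was detectable at this depth.

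Genes whose levels closely resembled the mean of the 10 members over the 41 poly(A) libraries were *Adgrf5*, *Kdm4b*, *Miat*, *4632415L05Rik*, *Ptpru*, *Tmem86b*, *Phf21b*, *Vax1* and *Dpysl4* (Pearson's r of 0.94 to 0.96 on log2(TPM + 0.1), among 13152 genes with a mean of at least 1 TPM in WT E9.5 embryos). Each of these had a lower median in mEFs than in E9.5 embryos, E13.5 embryos and brains. Embryo libraries used TruSeq, mEF libraries SENSE and brains both, so kit and, in part, depth differed between tissues as well. Among the members, r with that mean was highest for *Dll3* and *Lfng* (0.91 each) and lowest for *Msgn1* (0.18) and *T* (0.37). Each member is itself part of that mean, which raises its r, and *Msgn1* had a count in 1 library only.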

How the data were processed

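RNA-seq tables were made by the authors with RSEM on a RefSeq annotation edited at the last exon of *Chaserr*, and the deposited files hold expected counts, TPM and FPKM per gene. Poly(A) libraries were strand-specific, made with TruSeq (embryos and the third brain replicates) or SENSE (the rest). Those of the immunoprecipitation were made after depletion of ribosomal RNA. ATAC-seq peaks were called per library by the authors on mm9 with Bowtie2 and MACS2, and the deposited lists hold a score, a fold enrichment over background (a ratio), and -log10 p and q values. Versions of these tools are not given in the sources used here.

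Expected counts were rounded and tested with edgeR 4.0.16 in R 4.3.3 (quasi-likelihood, TMM scaling, edgeR's count filter, Benjamini-Hochberg adjustment over all genes tested, threshold 0.05). DESeq2 1.42.0, the study's tool, was an alternative, as were other scalings, no filter and leaving out each library. Stage was fitted over 12 embryo libraries, and each mutant with its own WT. The steps were tested on simulated data. Symbols were matched for 23449 of 24990 rows, and 374 rows join several genes. Promoters came from RefSeq, which held all 10 genes. The members and lists were chosen with earlier results of these data known. From each other list the text names the 2 largest falls and the 2 largest rises in the WT stage contrast among called genes with a mean of at least 1 TPM in the higher group, and every list gene called in a mutant comparison. Deviations of same-numbered libraries correlated at 0.437 to 0.747 in brains, where replicate 3 of both genotypes used another kit. Brain libraries of the same kit but different numbers correlated too (WT 2 with Het 1 at 0.589, WT 1 with Het 2 at 0.337). These values therefore do not show a pairing by number. In the other sets examined, same-numbered libraries correlated at -0.286 to 0.354. Depth was 9672637 to 16983416 counts in mEFs and 13956040 to 33192002 in brains. Some genes that these rules select are not reported here.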

Additional observations from a re-analysis of the deposited data

How the results depend on the processing

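No member was called in any mutant comparison under any alternative run, and *T* and *Cyp26a1* were lower at E13.5 in both genotypes under all of them. Of 605 member values under alternatives, 35 changed sign, none of them called. With each library left out in turn, the WT stage change ran from -1.96 to -1.70 for *T*, from -1.27 to -1.08 for *Cyp26a1*, from -0.57 to -0.38 for *Lfng* and from 0.88 to 1.38 for *Tbx6*. Promoter peaks with a -log10 q of at least 10 were found for 3 members against 5 in all.

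With the replicate block, the WT change of *Tbx6* was 1.05 (edgeR, adjusted p = 0.059) and lost its call, and 3 members were again called lower at E13.5. It changed no other member's call. The block moved the calls over all genes from 23 to 74 in Het, from 2 to 99 in *Chd2*m/m and from 13 to 75 in DKO mEFs, and from 5 to 1 at E13.5, where the samples share only a number. In brains, where the block also separates the kits, it gave 0.17 for *Ripply2* and called no gene. No paired analysis was possible for KO mEFs because their WT replicates carry other numbers.

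Counts over all genes moved most in mEFs: DESeq2 called 2590 genes in KO against 16, 82 in Het, 12 in *Chd2*m/m and 223 in DKO mEFs, 23 at E13.5, 5 at E9.5, 7 for stage by genotype and 1 in brains. Without the filter on low counts the numbers were 1407 in KO, 68 in Het, 6 in *Chd2*m/m and 103 in DKO mEFs, and with library totals alone 1111 in KO. A fit of all embryos called 2 genes at E9.5 and 2 at E13.5. The cause was not tested. Depth left 5 members untested at E9.5, 4 between stages and most in each mEF comparison.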

Other observations

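Values outside the comparisons came from 6 libraries of an RNA immunoprecipitation in Neuro2a cells, a mouse neuroblastoma line. They were made after depletion of ribosomal RNA, so their TPM are not directly comparable with those of the poly(A) libraries. In the 2 input libraries *Lfng* was at 38.3 and 58.5 TPM, *Tbx6* at 2.13 and 2.33 and *Ripply2* at 0.61 and 1.55. In the 2 IgG libraries *Lfng* was at 40.4 and 41.6, *Tbx6* at 2.68 and 4.59 and *Ripply2* at 3.36 and 7.73, and in the 2 CHD2 libraries *Lfng* was at 36.9 and 36.8, *Tbx6* at 2.00 and 4.08 and *Ripply2* at 1.75 and 3.15 TPM. *Ripply2* rested on 2 to 16 counts in these libraries, and 3 counts were worth 0.841 to 2.62 TPM. *Msgn1* had no count in any of them.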
